A study of Ciona robusta with 15 samples.

Results

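Siphons in their first day of regrowth were compared with siphons that were not regenerating, in the solitary sea squirt Ciona robusta. The members of the comparison, chosen by their labels, were 3 day 1 and 3 non-regenerating samples of 15 in the series, and the contrast was described across all 17745 transcript identifiers of the count table. All groups were wild-type siblings about 6 months old, bred from a pair of adults and anesthetized in MS222 for amputation, and every sample was oral siphon tissue. Day 1 siphons were taken 1 day after amputation, and 3 samples labelled as 0 days after it, taken immediately, serve as context. Each sample was a polyadenylated RNA library from a pool of 5 tissue pieces, so its value averages over animals. The labels do not say whether pools shared animals or a holding bucket, or what set the handling of non-regenerating siphons apart from that of day 0. P-values therefore measure the spread between pools, estimated over all 15 libraries rather than the 6 compared. State and handling cannot be told apart.

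The oral siphon is the inhalant tube of the animal, a muscular collar clothed in a cellulose tunic and rimmed by pigmented sensory organs. In Ciona it regrows after removal, with progenitor cells known to arrive from the branchial sac, and muscle, nerve, epidermis and tunic are rebuilt. Messenger RNA of such a piece mixes all these tissues, and in bulk samples fewer cells of a type and less RNA per cell cannot be told apart. The identifiers are Ensembl transcript numbers. Of the 17745, 0 could be paired with any of the 21486 genes in the reference table used here, so no gene name or role is given, and the lists of cell type and pathway genes, including markers of siphon tissues, could not be tested.

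The 6 libraries held 10573547 to 33413013 counts, and 15328 transcripts had enough counts to be tested. Levels are in CPM, counts relative to the library's size, scaled with TMM factors that set the bulk of transcripts level between libraries. They are not per length, so a long transcript has a higher CPM than a short one of the same copy number. Some libraries resembled those of another stage more than their own group. Across transcripts, non-regenerating replicate 1 correlated most with day 8 replicate 2 (Spearman 0.923), not far above non-regenerating replicate 2 (0.915). Non-regenerating replicates 2 and 3 were nearest to each other (0.941). Day 1 replicate 3 also lay nearest to day 8 replicate 2 (0.975, against 0.953 with day 1 replicate 1). For day 1 replicate 2 the lead of day 8 replicate 3 was slight (0.980, against 0.979 with day 1 replicate 1). Among the 2055 called transcripts whose groups did not overlap, non-regenerating replicate 1 was the library of its group nearest to day 1 in 43.65%, and day 1 replicate 3 the one nearest to the non-regenerating group in 58.05%. Groups follow the labels throughout, and whether these 2 libraries carry the right label was not tested. The median SD of log2 CPM within a group was 0.469 for non-regenerating siphons and 0.322 at day 1. It was 0.297, 0.359 and 0.321 at days 0, 3 and 8. The p-values and SEs below use a spread shared by all these groups, of which the non-regenerating group was the widest.

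Day 1 siphons differed from non-regenerating siphons in 2093 transcripts, 13.7% of those tested, at an adjusted p under 0.05 in edgeR. Of these, 991 were higher at day 1 (6.47%) and 1102 lower (7.19%). The median change was 1.28 on the log2 scale among the higher and -1.41 among the lower. Changes past 4-fold made up 216 of the higher calls and 297 of the lower ones, and changes past 16-fold 22 and 34. Day 1 and non-regenerating libraries did not overlap in 2055 of the calls. They did not overlap in 30.5% of all transcripts tested.

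**Figure D1:**
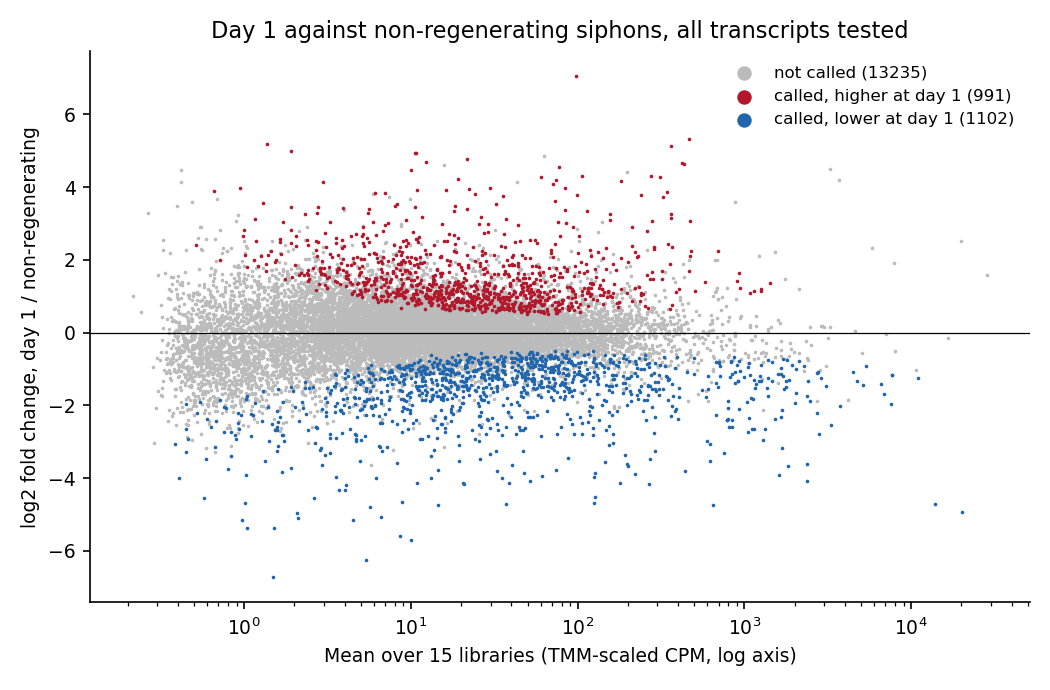
Each point is a transcript, with its mean TMM-scaled CPM over the 15 libraries on a log axis and its log2 fold change of day 1 over non-regenerating siphons. Colour marks the 991 higher and 1102 lower calls, and at the right of the plot the calls lie mostly below 0.

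These counts changed with the library left out, which also leaves fewer pools in its group. Without non-regenerating replicate 1 there were 1835 higher and 1310 lower calls, and without non-regenerating replicate 2 there were 613 and 820. Leaving out day 1 replicate 1 gave 538 and 617, and leaving out day 1 replicate 2 gave 447 and 518. The counts moved less without day 1 replicate 3 (969 and 1060) or without non-regenerating replicate 3 (873 and 967). A fit of the 6 libraries alone gave 261 and 506. Other methods called more, with 1387 higher and 1738 lower in DESeq2 and 1186 and 1292 in limma voom. Scaling by library totals alone moved the median log2 fold change of all transcripts from 0.03 to 0.66 and gave 5160 higher and 421 lower calls, so 92.5% of calls were higher where TMM gave 47.4%. Directions below are relative to the bulk of transcripts.

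The clearest differences were steady within both groups. ENSCINT00000030847 stood at 7.75, 7.78 and 9.12 CPM in the non-regenerating libraries and at 41.8, 40.5 and 45.4 CPM at day 1. It rose by a log2 fold change of 2.38 ± 0.21 (SE from the spread over all 15 libraries, n = 3 each, adjusted p = 6.18e-05 in edgeR). The day 0 libraries, at 33.5, 44.1 and 44.5 CPM, overlapped those of day 1. ENSCINT00000030840 stood at 4.90, 3.14 and 2.80 CPM against 24.96, 23.7 and 22.1 CPM at day 1, a log2 fold change of 2.69 ± 0.25 (adjusted p = 6.4e-05 in edgeR). Its day 0 libraries lay in between, at 14.2, 16.9 and 19.6 CPM, and overlapped neither group, but day 1 did not pass the test against day 0 (adjusted p = 0.474 in edgeR).

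Among the lower transcripts, ENSCINT00000015039 had 149, 171 and 114 CPM in non-regenerating libraries and 19.9, 23.9 and 24.9 CPM at day 1. The log2 fold change was -2.66 ± 0.22 (adjusted p = 6.18e-05 in edgeR). ENSCINT00000013062 fell from 2904, 3549 and 3534 CPM to 539, 463 and 593 CPM (log2 fold change -2.65 ± 0.23, adjusted p = 6.18e-05 in edgeR). In both, the lowest non-regenerating library was far above the highest day 1 library, and day 0 was as low as day 1 or lower. These 4 transcripts, chosen by lowest p, passed the test in each of 16 alternatives that were run. That choice favours a small spread and such passes, so neither is further support.

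The split of the calls by direction changed with abundance, and was near even from 1 to 100 CPM. Transcripts were put in classes by their mean CPM over the 15 libraries. Of the 148 transcripts at 1000 CPM and over, 77 were called (52.03%), 5 higher and 72 lower at day 1. Between 100 and 1000 CPM, 333 of 1312 were called, 118 higher and 215 lower. From 10 to 100 CPM there were 602 higher and 561 lower calls among 7169, and from 1 to 10 CPM 260 and 226 among 5568. Under 1 CPM, 34 of 1131 were called, 28 of them lower. The share called rose from class to class, from 3.01% to 8.73%, 16.2%, 25.4% and 52.03%. Against the same non-regenerating libraries, the share called for day 0 rose likewise, from 9.55% to 22.5%, 32.5%, 43.1% and 55.4%. The rise is therefore not particular to day 1, and how much of it comes from counts and spread was not tested.

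**Figure D2:**
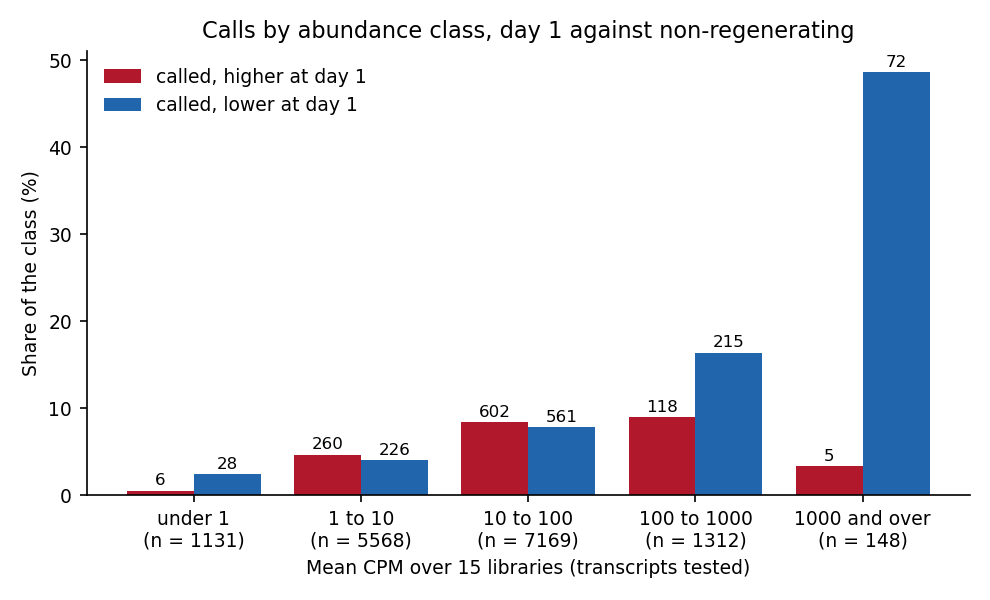
Bars give the share of each abundance class called higher (red) or lower (blue) at day 1 than in non-regenerating siphons, with the number of calls above each bar. The bars for lower calls reach 16.4% in the class from 100 to 1000 CPM and 48.65% at 1000 CPM and over.

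The size of the change followed another order. Called transcripts under 1 CPM had a median absolute log2 fold change of 2.69 and those from 1 to 10 CPM one of 1.79, against 1.15 from 10 to 100 CPM, 1.38 from 100 to 1000 CPM and 1.37 at 1000 CPM and over. Within-group spread was widest in the rare classes, at a median SD of 0.823 log2 CPM under 1 CPM and 0.373 at 1000 CPM and over in the non-regenerating group. A transcript with so low a mean must still reach the filter's count in some libraries. The class and the filter can therefore bear on both the direction and the fold of its calls, and nothing is read from them. The median over all 148 most abundant transcripts, called or not, was -0.89.

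Likewise, a transcript that is very high in non-regenerating siphons enters the top class partly through those libraries. When classes were set by the 6 libraries of days 3 and 8 alone, a choice made after the data were seen, 120 transcripts reached 1000 CPM, and 51 were called, 7 higher and 44 lower. With size factors as in DESeq2 the 148 gave 4 higher and 73 lower calls. With library totals alone they gave 12 higher and 42 lower, where the calls over all transcripts were mostly higher. Without day 1 replicate 2 there were 3 higher and 47 lower, without day 1 replicate 1 there were 3 and 57, without non-regenerating replicate 1 there were 10 and 70, and in the 6 libraries alone 1 and 44.

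The transcripts called lower at day 1 made up much of the RNA counted in non-regenerating siphons. They held 53.2%, 50.9% and 48.97% of all counts in the 3 non-regenerating libraries and 20.4%, 18.9% and 24.3% at day 1. The 991 higher transcripts held 1.87%, 1.68% and 1.54%, and 6.80%, 7.70% and 6.47% at day 1. These shares are of raw counts and need no TMM scaling, but the transcripts were chosen on the same 6 libraries. In the 9 libraries of days 0, 3 and 8, which enter neither group mean of the contrast but share its filter and estimate of spread, the lower transcripts held 17.4% to 24.9% and the higher ones 6.28% to 7.61%.

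**Figure D3:**
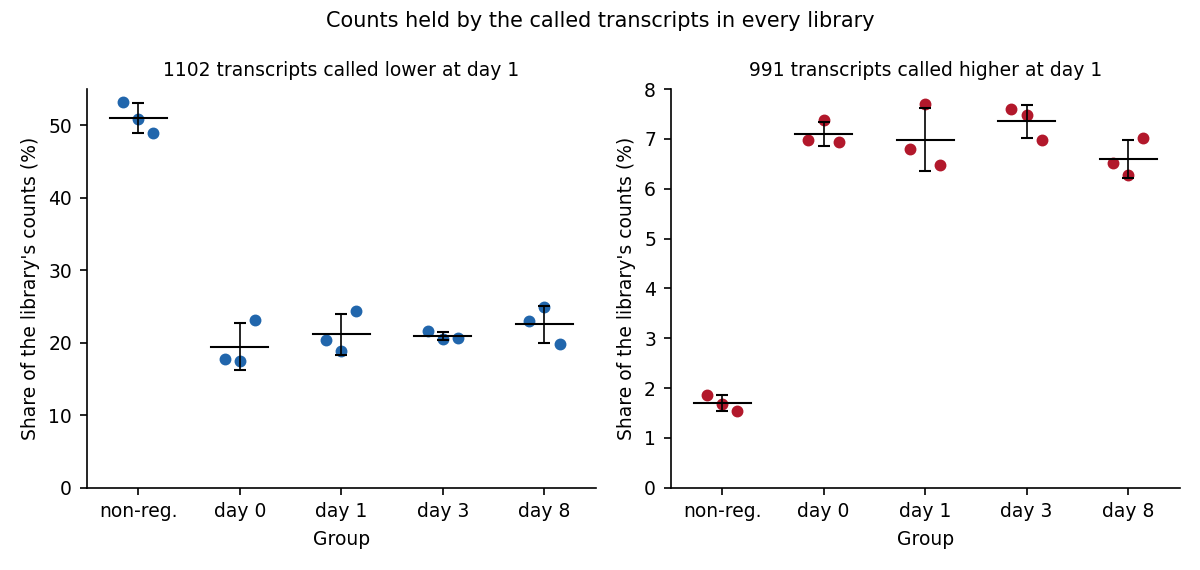
Points give the share of each library's raw counts held by the 1102 transcripts called lower (left) and the 991 called higher (right) at day 1, with the mean and SD of 3 libraries per group. The non-regenerating libraries stand apart from the other 12, at 48.97% to 53.2% on the left and 1.54% to 1.87% on the right.

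A pair of transcripts led the lower group. ENSCINT00000019271 stood at 93326, 86437 and 90660 CPM in non-regenerating libraries and at 1864, 1111 and 5979 CPM at day 1. It fell by a log2 fold change of -4.92 ± 0.73 (adjusted p = 0.000976 in edgeR). ENSCINT00000015480 stood at 72044, 45498 and 65860 CPM against 1649, 749.9 and 4638 CPM (log2 fold change -4.70 ± 0.91, adjusted p = 0.00439 in edgeR). In both, day 1 replicate 3 was the highest day 1 library, several times above the other two.

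Together they took 12.5%, 10.3% and 10.1% of non-regenerating counts and 0.368%, 0.211% and 1.29% at day 1. They were not the whole of the shift. Of the counts left once the pair was taken out, the other lower transcripts held 46.5%, 45.3% and 43.3% in the non-regenerating libraries and 20.1%, 18.7% and 23.4% at day 1. ENSCINT00000008143, the next by size of the CPM difference, fell less and more evenly, from 16486, 14976 and 21618 CPM to 4983, 3943 and 4791 CPM (log2 fold change -1.95 ± 0.24, adjusted p = 0.000352 in edgeR).

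Gains in CPM at day 1 were smaller. ENSCINT00000025245 rose from 525, 767 and 802 CPM to 1802, 1937 and 1664 CPM (log2 fold change 1.37 ± 0.25, adjusted p = 0.00313 in edgeR). ENSCINT00000006912 had 511.5, 753 and 770.0 CPM against 1518, 1683 and 1483 CPM (log2 fold change 1.20 ± 0.24, adjusted p = 0.00493 in edgeR, and 0.0572 in the 6 libraries alone). The log2 ratio of these 2 transcripts varied over the 15 libraries with an SD of only 0.07, as happens when reads are shared, and they may be a single signal. ENSCINT00000011394 rose from 394, 466 and 392 CPM to 1461, 1277 and 1132 CPM (log2 fold change 1.63 ± 0.24, adjusted p = 0.000976 in edgeR).

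The largest folds came with wide spread among the pools. ENSCINT00000013283 stood at 0.853, 0.728 and 2.06 CPM in the non-regenerating libraries and at 25.02, 243 and 171 CPM at day 1 (log2 fold change 7.06 ± 1.61, adjusted p = 0.0116 in edgeR). Its day 0 libraries split, at 209, 76.5 and 0.672 CPM, the last of them below every non-regenerating library. ENSCINT00000028075 stood at 28.1, 0.268 and 0.441 CPM against 370.4, 411 and 380 CPM, with non-regenerating replicate 1 far above the other pools of its group (log2 fold change 5.32 ± 1.27, adjusted p = 0.0152 in edgeR, and 10.2 without that library). Each missed the threshold in 1 of 16 alternatives (adjusted p = 0.185 in limma voom for the former and 0.104 in edgeR on the 6 libraries alone for the latter).

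ENSCINT00000030562 was the steadier case, at 8.31, 5.63 and 14.3 CPM against 265, 595.5 and 119 CPM at day 1 (log2 fold change 5.13 ± 0.63, adjusted p = 0.000405 in edgeR). Its day 0 libraries had 758, 585 and 901 CPM, overlapping day 1, and did not pass the test against it (adjusted p = 0.458 in edgeR). ENSCINT00000021866 rested on fewer counts and on day 1 replicate 1, with 0.142, 0.421 and 1.47 CPM against 41.4, 6.30 and 4.32 CPM (log2 fold change 4.95 ± 1.36, adjusted p = 0.0294 in edgeR), and passed in 10 of 16 alternatives (adjusted p from 0.00104 to 0.17).

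The largest falls were in transcripts with few counts at day 1. ENSCINT00000033656, also among them, varied less between the non-regenerating libraries and passed in 16 of 16 alternatives. Its values are given below with the transcripts near off at day 1. ENSCINT00000001756 had 9.10, 10.8 and 1.32 CPM in the non-regenerating libraries and 4 counts at day 1, all in replicate 3 at 0.157 CPM (log2 fold change -6.73 ± 1.16, adjusted p = 0.00204 in edgeR). ENSCINT00000025621 owed its non-regenerating mean to a single pool, with 4.83, 5.86 and 122 CPM against 1.42, 0.673 and 0.471 CPM (log2 fold change -5.70 ± 1.24, adjusted p = 0.00945 in edgeR). It passed in 11 of 14 alternatives, and its log2 fold change was -2.68 without non-regenerating replicate 3. ENSCINT00000027255, at 6.18, 90.1 and 21.8 CPM against 0.296, 0.433 and 1.61 CPM, likewise varied widely among the non-regenerating pools (log2 fold change -5.60 ± 1.14, adjusted p = 0.00625 in edgeR).

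Switches close to on or off in every library were rare. A transcript was taken as near off in a group when all 3 libraries were under 1 CPM while all 3 of the other group had at least 5 CPM. By that rule 1 transcript was near off in non-regenerating siphons and 4 at day 1. With the same limits set on group means instead of on every library, there were 23 and 28, so the counts depend on the rule. ENSCINT00000032328 was the one near off in non-regenerating siphons, at 0.497, 0.345 and 0.735 CPM, and it stood at 9.40, 6.54 and 5.18 CPM at day 1 (log2 fold change 3.85 ± 0.68, adjusted p = 0.00229 in edgeR). At day 0 it already had 7.65, 7.76 and 2.69 CPM.

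Of the 4 near off at day 1, ENSCINT00000033656 fell furthest, at 32.5, 16.2 and 24.1 CPM in the non-regenerating libraries and 0.296, 0.240 and 0.392 CPM at day 1 (log2 fold change -6.24 ± 0.81, adjusted p = 0.000459 in edgeR). ENSCINT00000010278 had 17.3, 13.3 and 25.6 CPM against 0.651, 0.289 and 0.628 CPM (log2 fold change -5.14 ± 1.07, adjusted p = 0.00693 in edgeR). ENSCINT00000014541 had 6.75, 6.63 and 18.8 CPM against 0.887, 0.769 and 0.902 CPM, so its day 1 level was close to the limit of the rule. ENSCINT00000033762 completed the 4, at 5.83, 10.99 and 11.3 CPM against 0.296, 0.577 and 0.0392 CPM (log2 fold change -4.95, adjusted p = 0.00104 in edgeR). The day 0 libraries of all but ENSCINT00000010278, where day 0 replicate 3 held 4.70 CPM, were under 1.4 CPM.

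Complete silence was seen only at the lowest levels. Of all 17745 transcripts, 9 had no count in any non-regenerating library and at least 1 in every day 1 library, and 14 had the reverse. None of these reached 10 counts in each library of the group that had counts. A count of 0 over a group allows up to 0.0639 TMM-scaled CPM in the non-regenerating libraries and 0.0475 at day 1 (3 counts over the group), from counting error alone.

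The count of near-off transcripts depended on non-regenerating replicate 1. Left out, 42 rather than 1 transcripts were near off in the remaining non-regenerating libraries. In replicate 1 those 42 ran from 0.497 to 442 CPM with a median of 12.6 CPM, and 30 had at least 5 CPM. With all libraries in the test, 13 of the 42 were called, against 13.7% of all transcripts tested. The 42 were picked on libraries of the same contrast, so nothing is read from that count. In 36 of the 42, every day 0 library also had at least 5 CPM. Without day 1 replicate 3, 13 rather than 4 transcripts were near off at day 1 and 5 in non-regenerating siphons, and without non-regenerating replicate 3 there were 10 and 3. For non-regenerating replicate 1 the day 1 count was 7.

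Most of the difference seen at day 1 was there at day 0. For each call the day 0 share was taken as the log2 fold change of day 0 over non-regenerating siphons divided by that of day 1, so that 1 means an equal difference and 0 none at day 0. The median day 0 share was 1.05, at 1.05 for the higher and 1.04 for the lower calls. Of 2093 calls, 2009 (95.99%) had a share of at least 0.5. Of the 56 calls past 16-fold, 54 did. The comparisons of day 1 and day 0 share the non-regenerating libraries, and an offset of those libraries would enter both, so the shares are a description. How much they owe to the shared libraries was not measured.

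**Figure D4:**
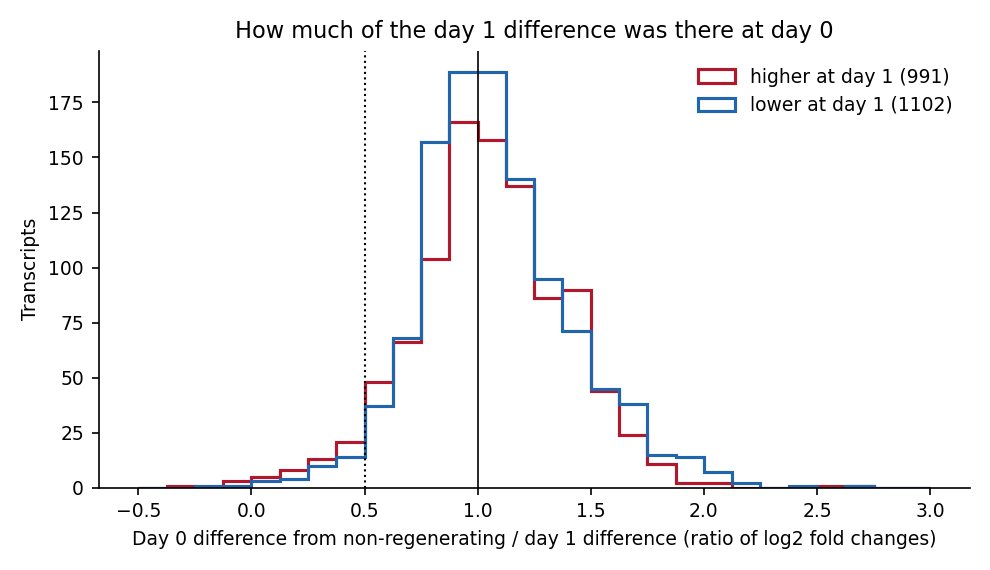
The histogram counts called transcripts by their day 0 share, the ratio of the day 0 to the day 1 log2 fold change against non-regenerating siphons, in red for the 991 higher and in blue for the 1102 lower calls. Both outlines peak around 1 (solid line), and few transcripts lie left of 0.5 (dotted line).

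Tested on its own, day 0 differed from non-regenerating siphons in 4336 transcripts (28.3%), 1827 of which were also day 1 calls and 266 day 1 calls were not among them. That a transcript passed in one comparison and not in the other does not show a difference between days, and the direct test of day 1 against day 0 called 5 transcripts (0.0326%). In 1600 of the 2093 calls the day 1 and day 0 libraries overlapped. In 310 the day 1 libraries lay between the groups, above every library of one and below every library of the other. In 174 they lay beyond every day 0 library, 90 in the higher direction and 84 in the lower. The shares of all transcripts tested with such patterns were not counted, so no excess among the calls is read from these counts.

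Some calls had nearly the same mean level at days 0 and 1. ENSCINT00000030679 had 276, 494 and 422 CPM in the non-regenerating libraries, 116, 99.8 and 47.1 CPM at day 0, and 71.97, 64.8 and 126 CPM at day 1. ENSCINT00000000680 had 283.5, 341 and 279 CPM, then 39.4, 33.5 and 108 CPM, then 31.8, 40.5 and 108.5 CPM. In both, the day 0 and day 1 libraries covered almost the same range, well under the non-regenerating ones (log2 fold changes at day 1 of -2.18 ± 0.41 and -2.32 ± 0.49, adjusted p = 0.00328 and 0.00719 in edgeR).

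Among higher transcripts of that kind, ENSCINT00000036749 stood at 66.8, 17.4 and 7.06 CPM, then 127, 135 and 139.7 CPM at day 0, then 148, 147 and 101.5 CPM at day 1. ENSCINT00000032324 stood at 84.1, 23.7 and 16.6 CPM, then 420.1, 449 and 217 CPM, then 323, 410.3 and 319.5 CPM. Non-regenerating replicate 1 was the highest of its group in both and lay nearest to the regrowing siphons. Their log2 fold changes at day 1 were 2.11 ± 0.55 and 3.08 ± 0.58 (adjusted p = 0.0221 and 0.00395 in edgeR). ENSCINT00000036749 passed in 12 of 16 alternatives (adjusted p from 5.64e-05 to 0.139).

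The part of the difference with less than 0.5 of it at day 0 came to 84 transcripts, 51 higher and 33 lower. In 67 of them, 42 higher and 25 lower, every day 1 library also lay beyond every day 0 library. That count too has no share over all transcripts beside it. The changes in the 67 were moderate. The 42 had a median log2 fold change of 1.07 against non-regenerating siphons, of 0.80 against day 0, and of 0.34 for day 0 against non-regenerating siphons. The 25 had medians of -1.01, -0.77 and -0.32. Only 1 of the 67 passed the test against day 0, and the adjusted p of the others ran up to 0.564 in edgeR, so most are not shown to have changed between the days. The 67 became 30 without day 1 replicate 2, 38 without day 1 replicate 1 or non-regenerating replicate 2, and 101 without day 0 replicate 2. Likewise the 84 became 31, 43, 42 and 111.

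The one of the 67 that passed against day 0 was ENSCINT00000024202. It stood at 32.3, 22.2 and 22.7 CPM in non-regenerating libraries, 22.8, 27.7 and 20.1 CPM at day 0, and 55.4, 64.3 and 77.3 CPM at day 1. The non-regenerating and day 0 libraries overlapped, and every day 1 library was above them all. It rose by 1.35 ± 0.23 on the log2 scale against non-regenerating siphons (adjusted p = 0.00185 in edgeR, passing in 16 of 16 alternatives) and by 1.48 ± 0.23 against day 0 (adjusted p = 0.0489 in edgeR). It was still at 44.7 to 66.3 CPM at day 3 and 50.6 to 74.7 CPM at day 8.

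**Figure D5:**
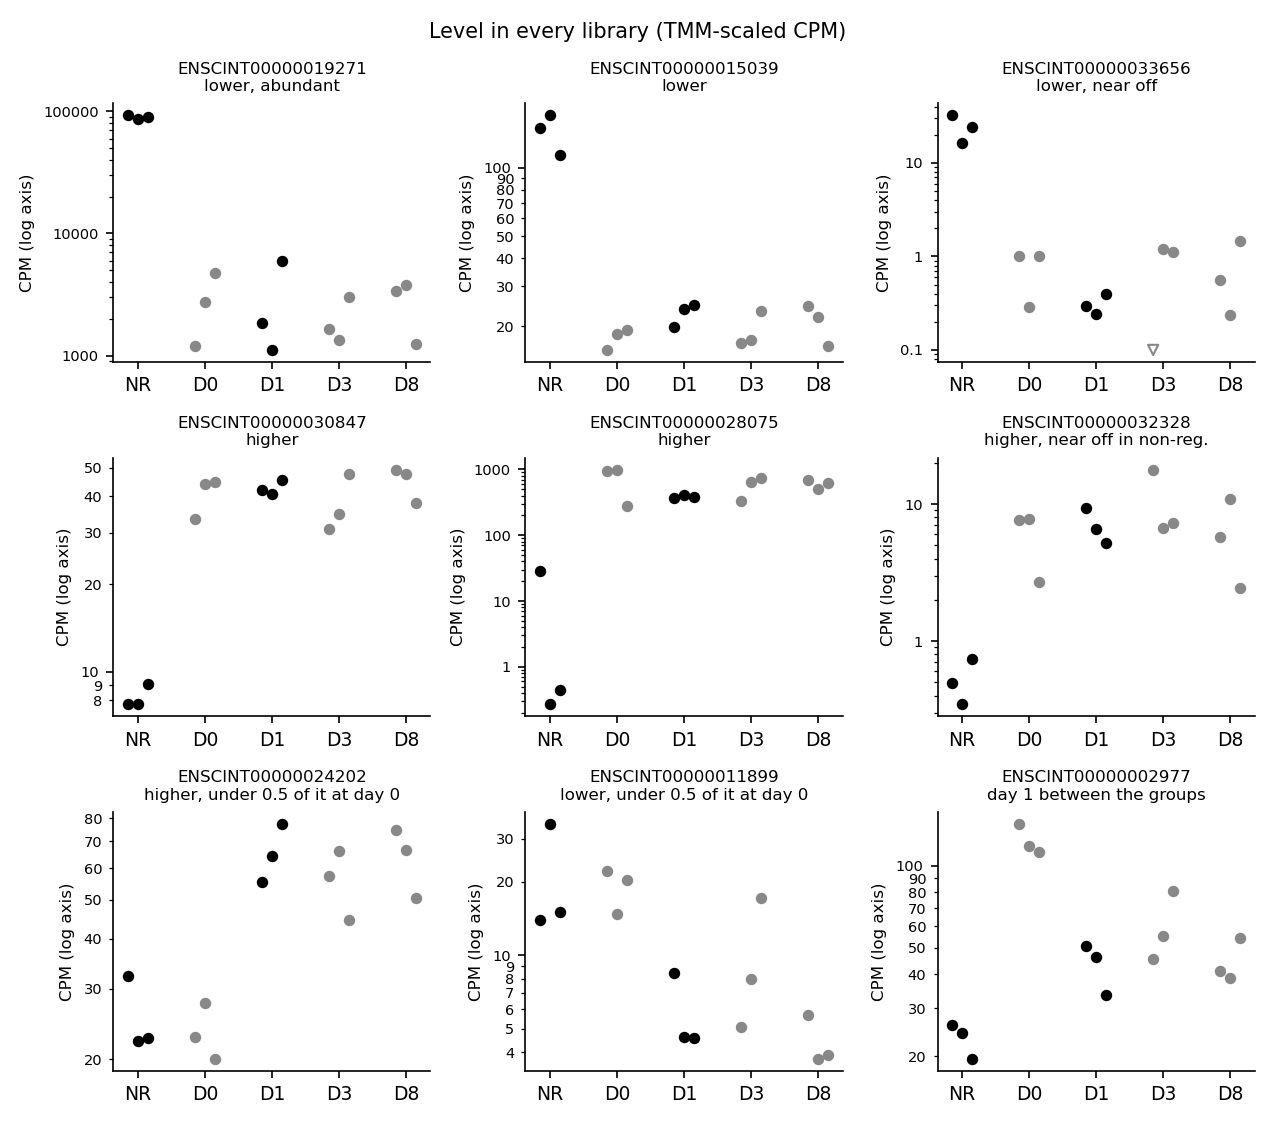
Points give the TMM-scaled CPM of 9 transcripts in every library on log axes (NR, non-regenerating; D0 to D8, days after amputation; black, the groups compared; open triangle, no count). In the upper and middle rows day 0 lies with day 1 away from the NR libraries, whereas in the lower row day 1 lies apart from day 0 as well.

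Of the other higher transcripts in this set, ENSCINT00000031432 had the largest change from day 0. It stood at 15.4, 2.34 and 73.4 CPM in the non-regenerating libraries, 142, 256 and 6.82 CPM at day 0, and 357, 817 and 1082 CPM at day 1 (log2 fold change against non-regenerating siphons 4.65 ± 1.33, adjusted p = 0.0355 in edgeR). Its near companion ENSCINT00000037320 moved with it to an SD of 0.03 in log2 ratio and may be the same signal. Both passed in 8 of 16 alternatives (adjusted p from 0.00123 to 0.11), and their day 1 levels did not pass against day 0 (adjusted p = 0.486 and 0.484 in edgeR). ENSCINT00000025362 stood at 1.56, 1.49 and 7.65 CPM, then 4.19, 4.17 and 2.02 CPM, then 10.9, 11.6 and 17.8 CPM at day 1, passing in 9 of 16 alternatives (adjusted p from 0.00113 to 0.135).

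On the lower side, ENSCINT00000028150 stood at 4.12, 3.91 and 2.94 CPM in non-regenerating libraries and 5.08, 6.85 and 3.55 CPM at day 0, but at 0.887, 0.481 and 1.33 CPM at day 1 (log2 fold change against non-regenerating siphons -2.01 ± 0.46, adjusted p = 0.0109 in edgeR). It passed in 13 of 15 alternatives (adjusted p from 0.000168 to 0.0624), missing in the 6 libraries alone and without day 1 replicate 2. At days 3 and 8 its libraries had 2.35 to 6.50 and 2.64 to 4.42 CPM, above every day 1 library. ENSCINT00000011899 had 13.9, 34.5 and 15.0 CPM, then 22.2, 14.8 and 20.4 CPM, then 8.46, 4.62 and 4.59 CPM (-1.86 ± 0.45, adjusted p = 0.0152 in edgeR). It had 5.08, 7.97 and 17.1 CPM at day 3, where replicate 3 reached the non-regenerating and day 0 ranges, and 3.75 to 5.70 CPM at day 8. It passed in 13 of 16 alternatives (adjusted p from 0.000825 to 0.0819) and had a log2 fold change of -1.29 without non-regenerating replicate 2, where it missed. ENSCINT00000006905 was the least firm, at 15.5, 3.75 and 9.41 CPM, then 3.40, 3.45 and 12.3 CPM, then 1.95, 1.54 and 2.94 CPM, and it passed in 6 of 15 alternatives (adjusted p from 0.00333 to 0.136). None of these 3 passed against day 0 (adjusted p = 0.147, 0.26 and 0.4 in edgeR).

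The other 4 transcripts that passed between day 0 and day 1, named after their values were seen, moved back toward the non-regenerating level. That test was passed narrowly, with an adjusted p of 0.0489 in edgeR for ENSCINT00000002977, ENSCINT00000002984 and ENSCINT00000032868 and of 0.0376 for ENSCINT00000026108. The alternatives below are of the test against non-regenerating siphons, not of this one. ENSCINT00000002977 had 26.1, 24.4 and 19.6 CPM in non-regenerating libraries, 142, 118 and 112 CPM at day 0, and 50.6, 46.3 and 33.5 CPM at day 1. ENSCINT00000002984 moved with it to an SD of 0.07 in log2 ratio, at 28.6, 24.7 and 23.1 CPM, then 157, 136 and 127 CPM, then 56.8, 54.3 and 38.5 CPM, and may be the same signal. At day 1 both were still above the non-regenerating group (log2 fold changes 0.89 ± 0.24 and 0.97 ± 0.23, adjusted p = 0.0229 and 0.0118 in edgeR), passing in 11 and 13 of 16 alternatives (adjusted p from 0.000118 to 0.0914).

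ENSCINT00000026108 made the reverse move, at 27.3, 24.1 and 26.3 CPM, then 3.35, 4.84 and 3.02 CPM at day 0, then 13.2, 13.1 and 11.9 CPM at day 1. It remained under the non-regenerating group at day 1 by -1.03 ± 0.23 on the log2 scale (adjusted p = 0.00862 in edgeR, passing in 15 of 16 alternatives, adjusted p from 2.1e-05 to 0.23). ENSCINT00000032868 had 8.17, 14.8 and 7.06 CPM, then 1.79, 1.73 and 1.63 CPM at day 0, then 9.58, 5.87 and 9.46 CPM. Its day 1 and non-regenerating libraries overlapped, and it did not pass the test between them (adjusted p = 0.606 in edgeR).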

How the data were processed

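The table deposited by the authors holds raw read counts per transcript identifier in 15 libraries. TopHat, Bowtie and HTSeq are named in the submitters' processing notes; their versions and settings, the build, the annotation and strand use were not given in the sources used here, so antisense and overlapping transcripts cannot be told apart. Members and rules were chosen with earlier results of these data known. Transcripts passing edgeR's expression filter (minimum count 10) were tested, 15328 kept and 2417 dropped. One quasi-likelihood fit over all 15 libraries, with 1 coefficient per group, gave each contrast (edgeR 4.0.16, R 4.3.3, TMM, robust, two-sided, Benjamini-Hochberg over 15328 transcripts), after a test on simulated data. Log2 CPM used a prior count of 0.5. Abundance classes and day 0 shares are descriptions without a test. Alternatives used DESeq2 1.42.0 and limma 3.58.1 voom, other scalings, filters and libraries.

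Named transcripts met these rules: largest fold (4 per direction) and largest CPM difference (3) among calls without overlap, largest day 1 to day 0 change among those beyond day 0 (3), near off (up to 3), least change from day 0 at 4-fold and 50 CPM (2), and lowest p (2). The first and largest-change rules required a mean of 5 CPM. The 5 calls of day 1 against day 0 were added after their values were seen. ENSCINT00000033762 was given only to complete the 4 near off at day 1. It is not among the 36 named transcripts for which alternatives are counted.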

Additional observations from a re-analysis of the deposited data

How the results depend on the processing

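The 2093 calls (991 higher, 1102 lower) became 5581 (5160 and 421) with library totals alone, 767 (261 and 506) in the 6 libraries fitted alone, and 1748 with the replicate number as a block (replicate block); DESeq2 called 1738 lower. Same-numbered libraries of the groups correlated in their deviations at -0.236 to 0.00465, so the numbers were not taken as pairs. Without 1 library at a time the calls ran from 965 to 3145, the higher from 447 to 1835 and the lower from 518 to 1310. Without non-regenerating replicate 1 and day 1 replicate 3 together (added with the data known) there were 3246, of which 1936 were higher. In the most abundant class, 5 higher and 72 lower calls became 12 and 42 with library totals, 1 and 44 in the 6 libraries, 9 higher in DESeq2, 8 higher in limma voom, 12 higher without the 2 libraries together, and 3 to 10 higher and 47 to 70 lower without 1 library. The 84 calls with a day 0 share under 0.5 became 643 with library totals, 26 at a share under 0.25, 303 under 0.75, and 31 to 111 without 1 library; the 67 beyond day 0 became 489, 26, 151, and 30 to 101. The 1 and 4 transcripts near off in non-regenerating siphons and at day 1 became 5 and 2 with library totals, 0 and 1 at under 0.5 CPM, 0 and 2 at 10 CPM or more, and 1 to 42 and 5 to 13 without 1 library. Of 36 named transcripts, ENSCINT00000032868, not called, changed direction, to a log2 fold change of 0.324 with library totals and of -0.492 to 0.124 without 1 library, and 15 lost their call in at least 1 alternative. The causes were not tested.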
